A study of Mus musculus with 55 samples.

Results

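The complement and coagulation genes described here are 43 genes that encode secreted proteins of the complement cascade, the clotting cascade and their inhibitors, together with 1 complement receptor. They were chosen by symbol from a list of these pathways, although earlier results of these data were known. All 43 were among the 34490 gene symbols that both batches of libraries share. They were divided into 21 complement genes, 13 coagulation factors and 9 inhibitors, and into 10 smaller groups by role. RNA from whole liver of adult C57BL/6 mice was sequenced in 53 libraries, 49 of which had a group. R&Zdel mice carried a hepatocyte deletion of the exons encoding the ring domain of *Rnf43* and *Znrf3*, the 2 ubiquitin ligases that remove Wnt receptors from the cell surface, and R&Zflox mice carried the same floxed alleles without recombination.

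Undamaged livers were collected at 1 month (1M, 4 R&Zdel and 4 R&Zflox), 3 months (3M, 2 and 5) and 7 months (7M, 5 and 5) after deletion. A further R&Zdel library at 7M, whose mouse had no listed sex, entered no main test. Livers after repeated injection of the hepatotoxin CCl4 (chronic damage, CD) were collected at 4, 50 and 170 days of recovery, with 2 libraries per genotype and time except R&Zflox at 50d, which had 1. Livers after partial hepatectomy (PHx) were collected at 7 and 21 days, with 3 libraries per genotype and time. In the 7M and CD mice, and in the 3M mice of the first batch, Cre was the tamoxifen-induced Alb1-CreERT2 of hepatocytes, and control littermates received sunflower oil. In the 1M and PHx mice, and in the 3M mice of the second batch, Cre was delivered by an AAV8 virus under the hepatocyte promoter TBG, and controls received a virus without Cre. The CD mice were all male. The labels list CD controls as damaged, and the paper's results also describe control littermates as given the same CCl4 regimen. In contrast, the study's methods state that unrecombined littermates received corn oil vehicle. The labels were followed, and this conflict was not tested with the values given here.

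Complement is a cascade of plasma proteases. The classical and lectin pathways cleave C4 and C2, the alternative pathway amplifies the cleavage of C3, and the terminal components C6, C8 and C9 assemble with C5 and C7 into the pore of the membrane attack complex. Coagulation factors, several of which need vitamin K-dependent carboxylation, activate each other until thrombin (encoded by *F2*) cuts fibrinogen into fibrin, which plasmin later dissolves. Hepatocytes are the main source of most of these proteins, and several of them, fibrinogen above all, are acute-phase proteins whose transcription rises in inflammation.

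The 3 fibrinogen chains and the chains of complement C8 gave the differences with which much of this account is concerned, and their upstream sequences are shown for that reason. The fibrinogen genes lie side by side on mouse chromosome 3 (mm10), *Fgg* at chr3:83007724-83015056 (+), *Fga* at chr3:83026153-83033627 (+) and *Fgb* at chr3:83042246-83049863 (-). *C8b*, at chr4:104766317-104804548 (+), neighbours *C8a*, at chr4:104815679-104876487 (-). The windows printed end at the base before the annotated start (RefSeq, GRCm38.p6), and the window of *C8a* is shorter because bases inside the gene as it was counted were left out. Capitals mark the letters of a half-site for HNF1 (GTTAAT) or of a site for C/EBP (TTGCNNAA) or STAT (TTCNNNGAA) on either strand. None of these overlap here. The *Fga* window is chr3:83025903-83026152, that of *Fgb* chr3:83049864-83050113, that of *Fgg* chr3:83007474-83007723, that of *C8a* chr4:104876488-104876648 and that of *C8b* chr4:104766067-104766316, each written on the strand of its gene.
Fga: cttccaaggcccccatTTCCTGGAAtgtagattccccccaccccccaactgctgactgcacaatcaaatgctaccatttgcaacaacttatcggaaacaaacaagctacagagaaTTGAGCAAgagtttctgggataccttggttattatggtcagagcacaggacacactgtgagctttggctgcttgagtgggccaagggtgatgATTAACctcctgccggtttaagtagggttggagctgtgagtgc
Fgb: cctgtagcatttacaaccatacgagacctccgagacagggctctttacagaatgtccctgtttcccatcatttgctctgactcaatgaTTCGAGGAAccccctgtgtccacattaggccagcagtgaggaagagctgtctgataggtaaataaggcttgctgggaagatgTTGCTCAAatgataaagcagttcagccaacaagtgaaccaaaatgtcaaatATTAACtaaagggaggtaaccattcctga
Fgg: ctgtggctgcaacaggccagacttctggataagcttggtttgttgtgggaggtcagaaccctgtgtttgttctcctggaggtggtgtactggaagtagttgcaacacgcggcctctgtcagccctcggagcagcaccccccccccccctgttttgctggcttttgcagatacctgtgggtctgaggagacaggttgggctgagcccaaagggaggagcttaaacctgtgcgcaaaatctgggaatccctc
C8a: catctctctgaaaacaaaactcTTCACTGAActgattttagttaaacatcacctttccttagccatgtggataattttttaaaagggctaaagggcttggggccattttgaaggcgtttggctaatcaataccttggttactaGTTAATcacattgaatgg
C8b: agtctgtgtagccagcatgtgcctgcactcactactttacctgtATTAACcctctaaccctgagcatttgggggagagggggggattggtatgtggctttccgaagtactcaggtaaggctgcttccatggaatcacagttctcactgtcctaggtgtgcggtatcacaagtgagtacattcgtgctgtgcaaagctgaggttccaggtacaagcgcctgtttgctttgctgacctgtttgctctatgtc

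Of the 43 genes, 34 had an entry in the promoter table, with 38 promoters in all. In the 250 bases before the start, the HNF1 half-site letters were found in 12 of 38 promoters of these genes (31.6%) and in 6.43% of all 32851 promoters. The C/EBP letters were in 9 (23.7%, against 9.56%) and the STAT letters in 5 (13.2%, against 7.02%). The letters CAAAGTCCA, a form of the HNF4 site, were in 0 of 38 promoters (0.384% of all), and CTTTGAT, the site of the Wnt effectors TCF/LEF, was in 1, that of *Serpind1* (2.63%, against 3.2%). The promoters of *Fga* and *Fgb* held all 3 of the HNF1 half-site, C/EBP and STAT letters, whereas that of *Fgg* held none of the 5 motifs. A match is a stretch of letters only, and binding was not measured.

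Between 3.41% and 7.17% of all counts of a library fell on these 43 genes, with a median of 4.72%. Levels per length, as reads scaled to gene length and library size (RPKM) in the 4 undamaged R&Zflox livers of the first batch, were led by the fibrinogen β chain *Fgb* (3115 ± 351, SD), vitronectin *Vtn* (2348 ± 222), which blocks the membrane attack complex, and *Fga* (2229 ± 335). *Fgg*, at 1999 ± 280.0, and antithrombin *Serpinc1*, at 1927 ± 215, followed. The libraries of *Fgb* (2802 to 3504) lay above those of *Vtn* (2068 to 2570), whereas each later pair of neighbours among these 5 overlapped. At the low end stood the lectin-pathway protease *Masp1* (7.11 ± 0.462), the C5a receptor *C5ar1* (0.284 ± 0.148), which is known from myeloid cells, and *Serpina5* (0.0593 ± 0.0569), which never passed the filter on low counts. In every group all 8 hepatocyte markers had counts, as the tissue label requires. Because whole liver was measured, fewer cells of a type and less RNA per cell cannot be told apart. Levels scaled to library size alone (CPM) are set side by side within a batch, and tests over both batches carry a term for batch, since 3 of these genes lay more than 1 apart in log2 CPM between the batches in undamaged R&Zflox males. Factor B (*Cfb*) had a mean of 1342 CPM in the first batch (n = 3) and 14.5 in the second (n = 6), *C2* had 121 and 30.6, and factor V (*F5*) had 154 and 361.

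Total counts per library ranged from 11721687 to 38692089, with a median of 22982428. Whole-gene counts of *Rnf43* and *Znrf3* cannot show the loss of single exons, and were higher in R&Zdel in all 8 genotype comparisons (log2 fold changes from 0.26 to 2.22). Xist and Ddx3y counts matched the listed sex in 47 of 48 libraries. The library labelled R&Zflox PHx 7d replicate 3, listed as male, had Xist at 386 CPM and Ddx3y at 0, and PHx 7d results are therefore given with and without it. In the first batch, R&Zflox CD 170d replicate 1 and R&Zdel CD 170d replicate 2 stood apart by the bile duct gene *Krt19* (105 and 72.8 CPM) and the pancreatic gene *Ctrb1* (65.5 and 62.1 CPM).

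A gene was called lower or higher if edgeR's quasi-likelihood test over all genes gave it a p under 0.1 after Benjamini-Hochberg adjustment and its log2 fold change was beyond 1. For the genotypes after PHx, the study's own rule was kept, which asks for a p under 0.05 before adjustment and for the same size of change. Log2 fold changes are R&Zdel minus R&Zflox unless stated otherwise, and ± is the SD over libraries of a group. The labels do not say which litters or days the libraries of a group came from, so p-values measure only the spread between these samples, part of which may be technical.

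**Figure D1:**
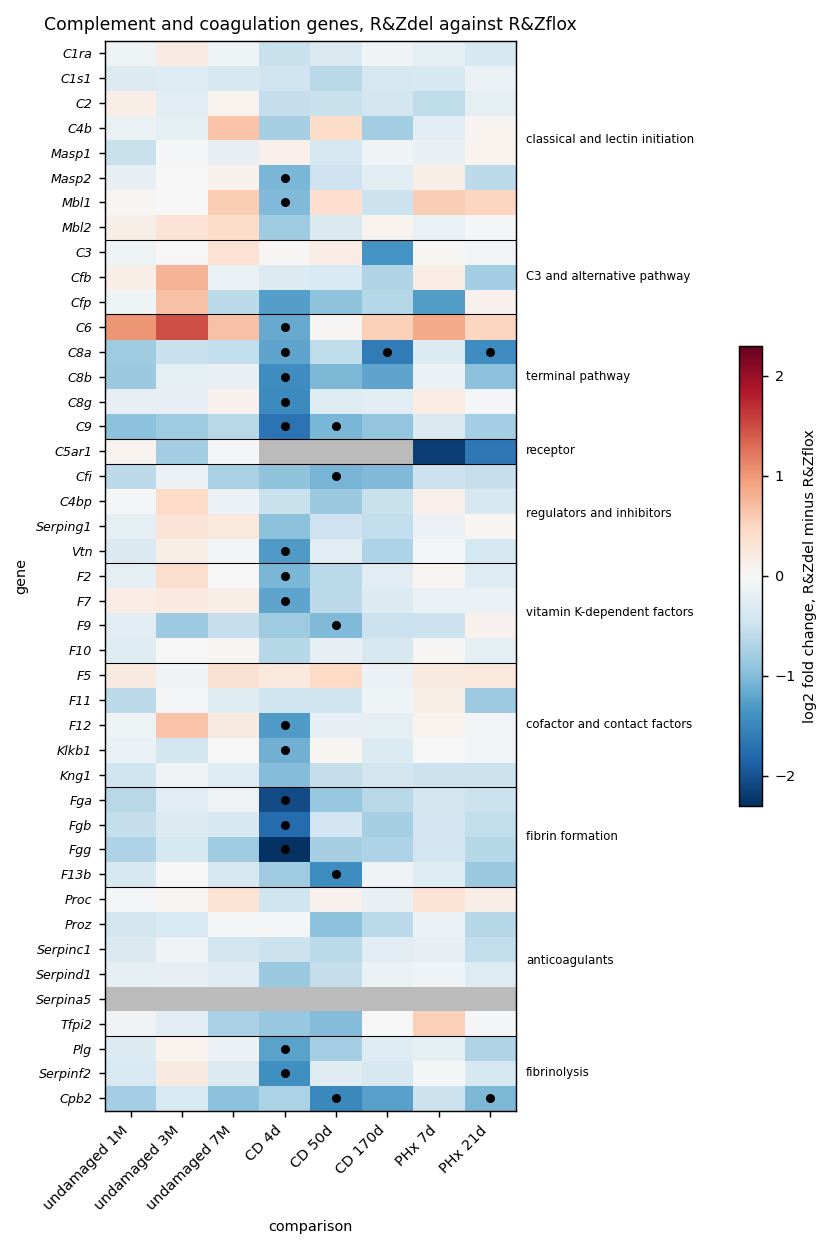
Log2 fold change, R&Zdel minus R&Zflox, of each of the 43 genes (vertical axis, grouped by role) in the 8 comparisons (horizontal axis), with blue for lower and red for higher in R&Zdel. Dots mark called genes and grey marks genes not tested. Dots are most numerous in CD 4d, with 17, and none stands on a red field.

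Without damage, the 2 genotypes did not differ at any age by the call rule in any of the 42 complement and coagulation genes tested. The number called was 0 at 1M, 3M and 7M, against 0.436%, 0.226% and 0.451% of all 12848 genes called in either direction. At an unadjusted p under 0.05, edgeR gave 7 genes at 1M (6 lower and 1 higher in R&Zdel), 2 at 3M (both higher) and 10 at 7M (5 in each direction), against 7.74%, 6.43% and 8.89% of all genes, while DESeq2's Wald test, by the call rule, gave 0, 1 and 0. The median log2 fold change of the 42 genes was -0.21 at 1M (all genes 0.01), -0.06 at 3M (all genes -0.09) and -0.13 at 7M (all genes -0.02).

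The fibrinogen chains at 1M were among those that missed the adjusted threshold. *Fga* was at 4660, 4542, 4287 and 5211 CPM in the R&Zdel livers and at 7473, 6234, 6685 and 8667 in the R&Zflox livers. Every R&Zdel value lay below every R&Zflox value, and the difference was -0.64 on the log2 scale (SE 0.20, adjusted p = 0.256). *Fgb* (-0.55, adjusted p = 0.453) and *Fgg* (-0.70, adjusted p = 0.589) were also without overlap. At 7M the R&Zdel livers were uneven, because replicate 4 stood apart from the rest. Its *C8a* level was 869.8 CPM against 211 and 259.7 in the other R&Zdel livers of its batch, and its *Fgg* level was 4136 CPM against 1510 and 1057. Without this library, *C8a*, *C9*, *Cfi*, *Fgg* and *Cpb2* were called lower at 7M, 5 in place of 0, where 1.6% of all genes were called in either direction.

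Undamaged livers differed by sex in 3 of these genes, a comparison made after the values had been seen. *C6*, the component that binds C5b to start the membrane attack complex, was at 607 and 538 CPM in R&Zflox males at 1M and at 7.48 and 11.3 in R&Zflox females. In R&Zdel livers at 1M it was at 796 and 759.8 CPM in males and at 47.1 and 19.8 in females. In undamaged livers of the first batch, *C6* was at 307 ± 122 CPM in males (n = 5) and 27.1 ± 27.2 in females (n = 2), and in those of the second batch at 541 ± 132 (n = 14) and 21.5 ± 17.9 (n = 4), without overlap in either. The model of both batches, with its batch term, gave a difference of 4.84 on the log2 scale (SE 0.35, adjusted p = 2.22e-09). *C8a*, which encodes the α chain of C8, was at 453 ± 166 CPM in males and 113 ± 50.1 in females of the first batch, and at 486 ± 213 and 125 ± 65.5 in the second (1.79, SE 0.35, adjusted p = 0.00449). *C9*, whose protein forms the pore, was at 335 ± 135 and 85.2 ± 24.2 CPM in the first batch and at 356 ± 137 and 121 ± 44.5 in the second (1.66, SE 0.26, adjusted p = 0.00035). For *C8a* and *C9* the sexes overlapped in the second batch and not in the first. The second-batch females were all 1M livers induced by virus, whereas its males were of 1M, 3M and 7M and of both inductions. The first-batch females were R&Zdel 3M replicate 4 and R&Zflox 7M replicate 5, whose labels conflict with the study's list. These means and overlaps therefore mix age and induction with sex. Fitted alone, each batch gave calls for all 3 genes, and the second for *C8b* also. These 3 terminal components were the only genes of the 42 called higher in males, where 0.483% of all genes were. *C8b* (1.45, adjusted p = 0.201) and *C8g* (0.24, adjusted p = 1) were not called. Mannose-binding lectin 2 (*Mbl2*), which starts the lectin pathway, went the other way, at 883 ± 198 CPM in males and 1593 ± 137 in females of the first batch and at 804 ± 169 and 1378 ± 70.8 in the second. Every male value was below every female value of its batch, but its difference of -0.90 (SE 0.14, adjusted p = 0.000425) fell short of the fold required. The models of undamaged livers and of PHx carry a term for sex.

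**Figure D2:**
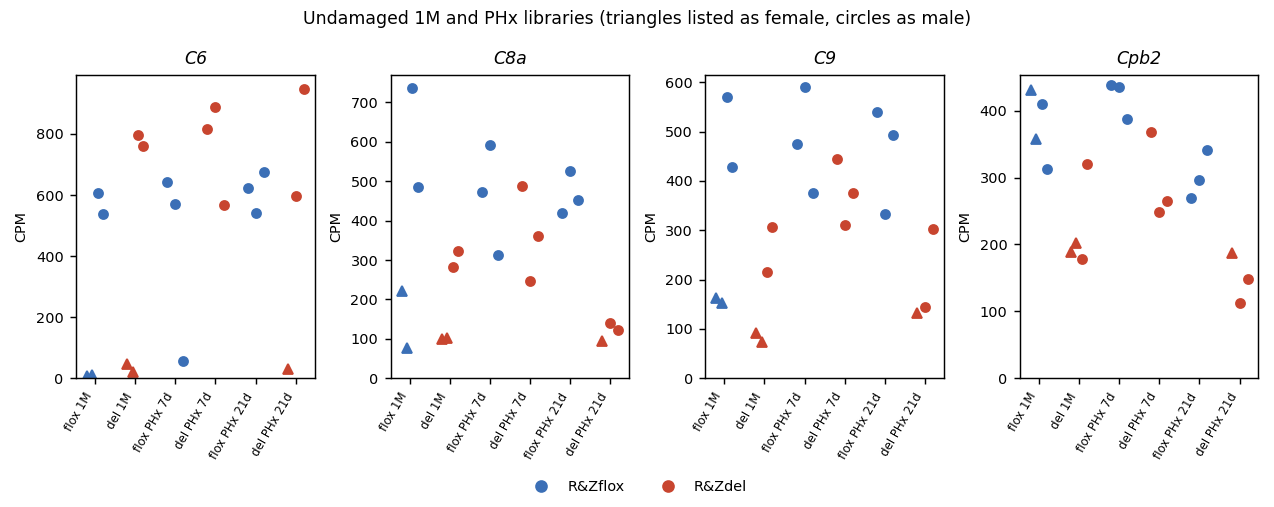
Level in CPM (vertical axes, from 0) of *C6*, *C8a*, *C9* and *Cpb2* in every undamaged 1M, PHx 7d and PHx 21d library (horizontal axes), with blue for R&Zflox, red for R&Zdel, triangles for mice listed as female and circles for male. *C6* was below 60 CPM in every triangle and in 1 circle, R&Zflox PHx 7d replicate 3, and *C8a* at PHx 21d was below 140 CPM in all 3 R&Zdel libraries and above 410 in all 3 R&Zflox libraries.

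At 4 days after chronic damage, 17 of the 41 genes tested were lower in R&Zdel than in R&Zflox and 0 were higher, where 4.95% of all 11358 genes tested were called lower. At any fold change, 26 passed the adjusted threshold, all of them lower, against 27.6% of all genes in either direction. Their median log2 fold change was -0.93, and that of all genes 0.06. In 37 of the 41, both R&Zdel values lay below both R&Zflox values, as they did in 35.2% of all genes. Complement had 8 of 20 called (median -0.94), the coagulation factors 7 of 13 (median -1.05) and the inhibitors 2 of 8 (median -0.79), and the 24 genes not called had log2 fold changes between -1.26 and 0.25. Together the 43 genes took 3.69% ± 0.00937 of counts in R&Zdel and 5.63% ± 0.582 in R&Zflox livers (n = 2 each).

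Fibrin formation had the lowest median of the roles (-1.92), with 3 of 4 genes called. *Fgg*, the γ chain of fibrinogen, was at 1078 and 1141 CPM in R&Zdel and at 5207 and 5904 in R&Zflox livers. On the log2 scale the difference was -2.27 (SE 0.25, adjusted p = 0.00136). The α chain *Fga* was at 2008 and 2139 CPM in R&Zdel and at 8183 and 9697 in R&Zflox (-2.05, SE 0.30, adjusted p = 0.00404). The β chain *Fgb* was at 1789 and 1542 against 5468 and 6402 CPM (-1.78, SE 0.30, adjusted p = 0.00683). All 3 chains were thus lower in R&Zdel livers together, whereas the carrier subunit of factor XIII, *F13b*, which belongs to the enzyme that crosslinks fibrin, had a log2 fold change of -0.82 and was not called.

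The terminal pathway was called as a whole, 5 of 5, with a median of -1.43. *C9* was at 170.1 and 157 CPM in R&Zdel and at 563 and 547 in R&Zflox (-1.71, SE 0.26, adjusted p = 0.00442). The γ chain *C8g* was at 695 and 528 against 2032 and 1486 CPM (-1.47, SE 0.32, adjusted p = 0.0167). The β chain *C8b* was at 148 and 119 against 383 and 363 CPM (-1.43, SE 0.29, adjusted p = 0.0126). *C8a* was at 213 and 171 against 426 and 501 CPM (-1.22, SE 0.24, adjusted p = 0.0112). *C6*, in these male mice, was at 96 and 57.7 against 171 and 185 CPM (-1.16, adjusted p = 0.0169), and for none of the 5 did the genotypes overlap.

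Of the 8 initiating genes, the lectin-pathway protease *Masp2* (-1.06) and the mannose-binding lectin *Mbl1* (-1.01) were called lower. Of C3 and the alternative pathway, 0 of 3 were called by edgeR, and 1, *Cfp*, had an unadjusted p under 0.05, as 35.0% of all genes did, and was called lower by DESeq2. *C3*, the central component, was at 4552 and 4023 CPM in R&Zdel and at 3760 and 4962 in R&Zflox, so that the groups overlapped (0.03 on the log2 scale, SE 0.40, adjusted p = 0.967). Properdin, *Cfp*, which stabilises the alternative convertase, had a log2 fold change of -1.26 (adjusted p = 0.102 in edgeR). Of the 4 regulators, *Vtn* was called, at 2146 and 2009.9 CPM in R&Zdel against 5082 and 5627 in R&Zflox (-1.31). Whether one role differed from another was not tested.

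Among the clotting factors, 2 of the 4 vitamin K-dependent genes were called. Factor VII (*F7*), which starts clotting with tissue factor, was at 60.7 and 55.1 CPM in R&Zdel and at 150.1 and 129.9 in R&Zflox (-1.22, SE 0.26, adjusted p = 0.0157). Prothrombin, *F2*, had a log2 fold change of -1.05. Factor IX (*F9*), whose loss causes haemophilia B, passed the adjusted threshold but not the fold, at 67 and 54 against 109.6 and 113 CPM (-0.82, SE 0.17, adjusted p = 0.0146). Of the contact system, factor XII (*F12*) was at 408 and 334 CPM in R&Zdel and at 970.0 and 934 in R&Zflox (-1.30, adjusted p = 0.00683), and plasma prekallikrein, *Klkb1*, had -1.10. Factor V (*F5*), a cofactor, was at a log2 fold change of 0.25 and was not called.

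The inhibitors were divided by role. Of the 3 fibrinolysis genes 2 were called, plasminogen (*Plg*, 627 and 543 against 1409 and 1430.0 CPM, -1.22) and its companion antiplasmin (*Serpinf2*, 527 and 533 against 1510.5 and 1429 CPM, -1.42), which act in opposite directions on fibrin. Of the 5 anticoagulants tested, 0 were called (0 by DESeq2 also, 2 with an unadjusted p under 0.05), with *Serpinc1* at -0.50, protein C (*Proc*) at -0.46 and the protein Z cofactor *Proz* at -0.05. Without R&Zdel CD 4d replicate 2, 9 of the 17 calls were left (*C8a*, *C8b*, *C9*, *F12*, the 3 fibrinogen chains, *Plg* and *Serpinf2*), and 7.63% of all genes were then called in either direction.

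**Figure D3:**
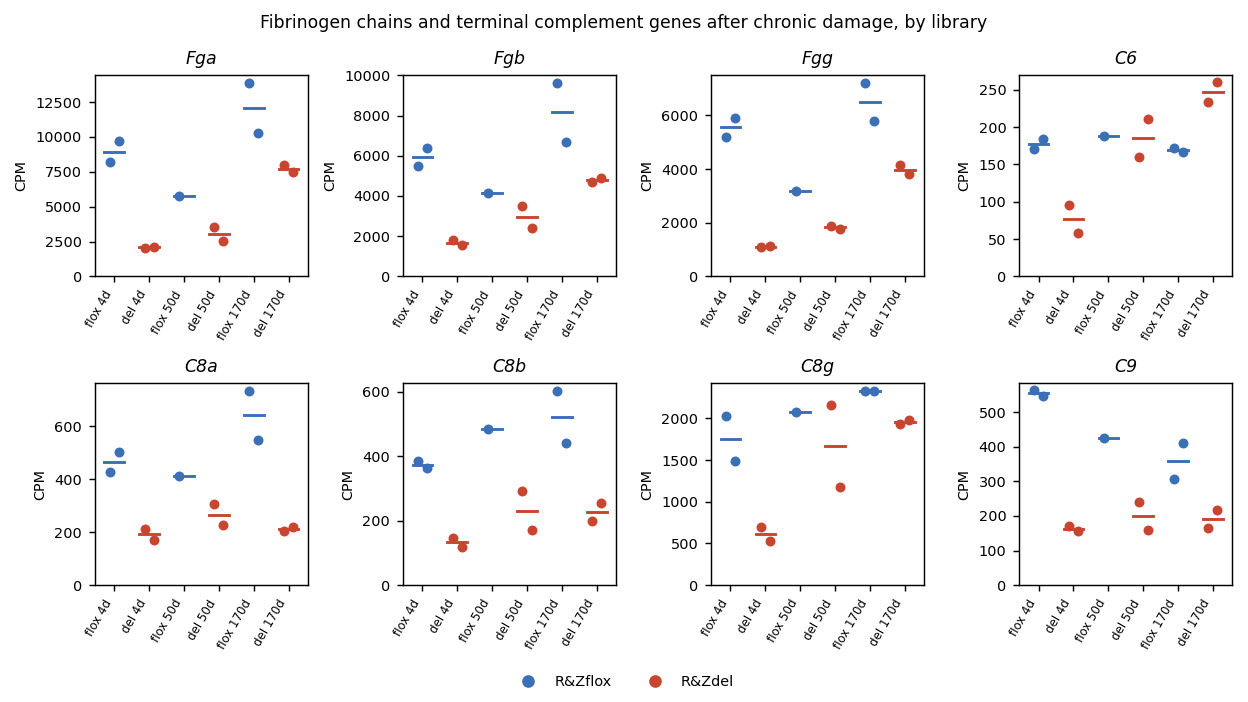
Level in CPM (vertical axes, from 0) of the 3 fibrinogen chains and the 5 terminal complement genes in every CD library (horizontal axes, by genotype and days of recovery), with blue for R&Zflox, red for R&Zdel, points for libraries and bars for group means. At 4d the red points lie below the blue points in all 8 panels, at 170d *C8a* is still at 205 and 219.6 CPM in R&Zdel against 734 and 549.9 in R&Zflox, and *C6* at 170d is higher in the red points than in the blue.

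Markers of other cells moved with these differences at 4 days. The 8 hepatocyte markers summed to between 75917 and 95827 CPM in R&Zdel and between 133490 and 143850 in R&Zflox livers, with 0 of 8 called and a median log2 fold change of -0.61. All 6 cholangiocyte markers were called higher in R&Zdel (sums from 2733 to 4328 CPM against 94.8 to 164, median 4.75). Of 8 macrophage markers 2 were lower (sums from 505 to 906 against 861 to 2058 CPM), of 7 endothelial markers 2 were lower (77.4 to 147 against 240 to 242 CPM), and of 7 stellate markers 2 were higher (282 to 687 against 223 to 322 CPM). Each of these markers had counts in both groups. Their part in the differences of complement and coagulation genes was not tested.

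Genes of the same pathways outside the list were counted at 4 days too. Of 15 other complement genes tested, 4 were lower, among them the plasma pattern receptors *Fcna* (-2.09) and *Crp* (-1.44), and 2 higher, the C3a receptor *C3ar1* (1.70) and clusterin, *Clu* (1.14). Of 16 other coagulation genes, 1 was lower, factor VIII (*F8*, -1.19), and 2 higher, von Willebrand factor (*Vwf*, 2.28) and the protease inhibitor *Serpine2* (2.36).

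Whether damage changed these genes in one genotype more than in the other was tested within the first batch, which alone held damaged and undamaged livers (3M and 7M as 1 group per genotype, with a term for sex). In R&Zflox, 1 of 42 genes was higher at CD 4d than without damage, *Cfp*, at 94.9 ± 58.6 CPM (n = 2) against 39.4 ± 10.3 (n = 4), where 3.39% of all genes were higher (1.41 on the log2 scale, SE 0.43, adjusted p = 0.0851). Leaving out any of 5 libraries in turn, among them R&Zflox CD 4d replicate 2 with 136 CPM, ended this call. In R&Zdel, 17 of 42 were lower, against 9.95% of all genes, and 1 was higher, *C5ar1*, against 21.4%. *C5ar1* was below 5 CPM in all these libraries, at 2.52 CPM on average at CD 4d against 0.23 without damage (3.62).

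Among the 17 genes lower in damaged R&Zdel livers, *F7* was at 57.9 ± 4.00 CPM (n = 2) against 179.7 ± 23.7 without damage (n = 3), a change of -1.61 (SE 0.25, adjusted p = 0.000423). *C8g* was at 611 ± 118 against 1724 ± 330.3 CPM (-1.61, SE 0.27, adjusted p = 0.000578). The C1 inhibitor *Serping1*, which restrains both complement and the contact system, was at 524 ± 19.5 against 1364 ± 96.1 CPM (-1.49, SE 0.24, adjusted p = 0.000515). *Fga* (-1.51, SE 0.28, adjusted p = 0.00103) and *F12* (-1.36, SE 0.30, adjusted p = 0.00281) were lower too. *C6* had the lowest value, -2.75 (SE 0.40, adjusted p = 0.000267), but its libraries overlapped, since 1 of the 3 undamaged mice was female and the fold change rests on the sex term.

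The change with damage was lower in R&Zdel than in R&Zflox for 15 genes and higher for 1, where 6.77% and 10.9% of all genes were. The difference of the 2 effects on the log2 scale was -1.81 for *F12* (SE 0.38, adjusted p = 0.0104), -1.78 for *Fga* (SE 0.35, adjusted p = 0.00867), -1.66 for *Fgg* (SE 0.29, adjusted p = 0.00527) and -1.41 for *Fgb* (SE 0.34, adjusted p = 0.0189). *F7* (-1.39, SE 0.32, adjusted p = 0.0159) and *C6* (-2.53, SE 0.48, adjusted p = 0.00783) followed. The other 9 were *Serping1*, *Vtn*, *Mbl2*, *F2*, *C8g*, *Serpinf2*, *Plg*, *Kng1* and *Masp2*, from -1.33 to -1.05. The groups also differed in time since deletion. Markers of other cells moved with damage too. In R&Zdel livers 6 of 6 cholangiocyte (median log2 fold change 4.88), 7 of 8 macrophage (1.66), 4 of 4 neutrophil and 5 of 7 stellate markers tested were higher and 1 of 8 hepatocyte markers lower. In R&Zflox livers 6 of 8 macrophage (1.52), 3 of 4 neutrophil, 2 of 7 stellate and 0 of 6 cholangiocyte markers were higher. The difference of the effects was called for 6 of 6 cholangiocyte (4.63) and 3 of 7 stellate markers, all higher in R&Zdel, for 2 of 8 hepatocyte markers, both lower, and for 0 of 8 macrophage markers. Their part in these results was not tested.

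**Figure D4:**
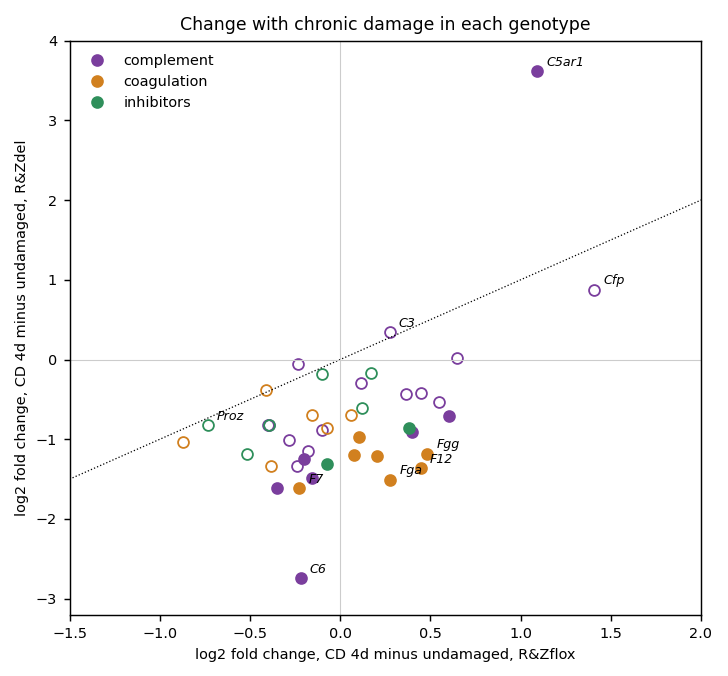
Log2 fold change from undamaged to CD 4d livers in R&Zflox (horizontal axis) and R&Zdel (vertical axis) for each of the 42 genes tested, coloured by group, with the line of equality dotted and filled points where the difference between the genotypes was called. The 15 filled points below the line hold *Fga*, *Fgg*, *F12*, *F7* and *C6*, and the 1 above it is *C5ar1*.

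At 50 days of recovery, 5 of the 41 genes were lower in R&Zdel and 0 higher, against 2.94% of all genes called lower. The R&Zflox group was 1 library, whose spread was taken from the other groups. The study's sample list puts both R&Zflox CD 170d libraries at 50d as well, and counted there they raised the number called lower to 12 of 41, with 10.9% of all genes called in either direction. Carboxypeptidase B2 (*Cpb2*), which protects fibrin from plasmin, was at 153 and 152 CPM in R&Zdel and at 441 in R&Zflox (-1.49, SE 0.34, adjusted p = 0.0645). *F13b* was at 52.5 and 70 CPM against 169.9 (-1.43, SE 0.28, adjusted p = 0.0528). Factor I (*Cfi*), which inactivates C3b, was at 419.6 and 317 CPM against 799 (-1.08, SE 0.28, adjusted p = 0.0812). *C9* was at 241 and 159.8 against 425 CPM (adjusted p = 0.0934), and *F9* at 64.7 and 65.8 against 136 CPM (adjusted p = 0.0549).

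Of these 5, *C9* was also called at 4 days, and whether the fold changes differed between the times was not tested. *C8a* (305 and 228 against 412 CPM), *C8b* (290.5 and 170.5 against 483 CPM) and *F7* (131 and 73 against 160.0 CPM) did not pass. Without R&Zdel CD 50d replicate 1 none of the 5 was called and without replicate 2 the 2 called were *F9* and *F13b*. Hepatocyte markers summed to between 77103 and 133500 CPM in R&Zdel against 145500 in R&Zflox (1 of 8 lower, median -0.27), and cholangiocyte markers to between 617 and 926 against 112.5 (1 of 6 higher, median 3.38). Stellate markers summed to between 370.2 and 456 against 253 CPM (1 of 7 higher) and macrophage markers to between 255 and 566 against 563 (1 of 8 lower), and the part of these markers was not tested. Outside the list, 3 genes that serve the secretion or carboxylation of clotting factors were lower, the cargo receptor pair *Lman1* (-1.48) and *Mcfd2* (-1.30) and the vitamin K-dependent carboxylase *Ggcx* (-1.03).

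At 170 days, 1 of the 41 genes was lower and 0 higher, against 0.211% of all genes called lower, with the time point of both R&Zflox libraries in doubt as described. *C8a* was at 205 and 219.6 CPM in R&Zdel and at 734 and 549.9 in R&Zflox (212 ± 10.5 against 642 ± 130.3), a difference of -1.60 (SE 0.24, adjusted p = 0.0338). *C8b*, its neighbour, was at 197 and 254 against 602 and 442 CPM (-1.21, SE 0.28, adjusted p = 0.161). *C3* was at 3072 and 3391 CPM in R&Zdel and at 11314 and 5360 in R&Zflox (-1.37, SE 0.41, adjusted p = 0.295).

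Neither *C8b* nor *C3* was called, but both were, with *C8a*, *Cfi* and *Cpb2*, under DESeq2's Wald test, 5 in all, where 2.56% of all genes were called in either direction. The median over the 41 genes was -0.39 (all genes 0.00), and in 30 both R&Zdel values lay below both R&Zflox values, against 18.6% of all genes. *F7* (136 and 160.1 against 194 and 173 CPM, adjusted p = 0.818) and *F9* (101 and 88.4 against 125 and 144 CPM, adjusted p = 0.38) did not pass. The call of *C8a* was lost without either R&Zdel library, and without the pair of libraries that stood apart by *Krt19* and *Ctrb1* (0 called). Hepatocyte markers summed to between 101000 and 102590 CPM in R&Zdel and between 128350 and 184370 in R&Zflox, and cholangiocyte markers to between 266 and 326 against 70.2 and 315 CPM, and their part was not tested.

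Over recovery, from 4 to 170 days, 11 of the 41 genes rose in R&Zdel, against 7.00% of all genes, and 1 fell, where 1703 of the 11358 genes fell. *Fga* rose from 2008 and 2139 to 7967 and 7485 CPM (1.83, SE 0.30, adjusted p = 0.00419). *Fgg* rose from 1078 and 1141 to 4146 and 3821 CPM (1.78, SE 0.25, adjusted p = 0.00258). *C6* rose from 96 and 57.7 to 234 and 260.3 CPM (1.62, SE 0.26, adjusted p = 0.00371), above the 172 and 166 CPM of the R&Zflox livers at 170d, although that difference was not called (0.54, adjusted p = 0.561).

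*C8g* (1.61, SE 0.32, adjusted p = 0.00807), *Fgb* (1.46, SE 0.30, adjusted p = 0.00929) and *F7* (1.29, SE 0.26, adjusted p = 0.0086) also rose in R&Zdel, with *Mbl1*, *Serping1*, *Klkb1*, *Plg* and *Masp2* at 1.01 to 1.28. *C8a* was not among them, at 0.08 (adjusted p = 0.821), nor was *C8b*, at 0.69. In R&Zflox, 2 genes changed, against 4.30% of all genes in either direction. *Proz* rose from 178 and 181 to 378 and 383 CPM (1.07, SE 0.20, adjusted p = 0.0314). *Cfp* fell from 53.5 and 136 to 36.8 and 18.4 CPM (-1.79, SE 0.50, adjusted p = 0.0992), and it fell in R&Zdel as well, from 38.0 ± 3.13 to 17.5 ± 0.405 CPM (-1.18, adjusted p = 0.0984). The R&Zdel call of *Cfp* was lost in 4 of 4 fits that left out 1 library. In R&Zflox, *Cfp* lost it without CD 4d replicate 2 or CD 170d replicate 2 (-2.38 to -0.95 over the 4 fits), and *Proz* lost it without either CD 4d library.

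The difference between the genotypes in recovery was not tested. Markers of other cells moved over the same interval. In R&Zdel, 4 of 6 cholangiocyte (median -2.76), 7 of 8 macrophage (-1.75), 3 of 3 neutrophil and 3 of 7 stellate markers tested fell, and 1 of 8 hepatocyte markers rose. In R&Zflox, 6 of 8 macrophage (-1.92) and 4 of 7 endothelial markers fell. Their part in the changes of complement and coagulation genes was not tested.

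**Figure D5:**
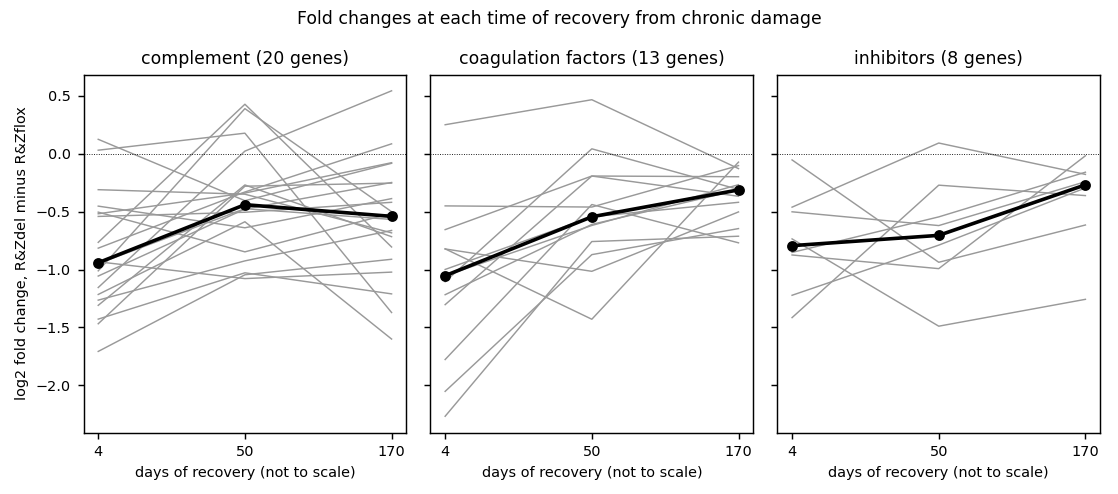
Log2 fold change, R&Zdel minus R&Zflox (vertical axis), at 4, 50 and 170 days of recovery (horizontal axis, not to scale) for 20 complement genes, 13 coagulation factors and 8 inhibitors, with a grey line per gene and the median in black. The medians at 4 days were -0.94, -1.05 and -0.79, and at 170 days *C8a* has the lowest line.

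After PHx, few of these genes were called as different between the genotypes. At 7 days, 0 of 42 were called at the unadjusted threshold, against 3.99% of all 12773 genes in either direction, and 0 at the adjusted one with the same fold (0.274% of all genes). DESeq2 called 0 too, and 8 genes had an unadjusted p under 0.05 in edgeR (7 lower), against 5.93% of all genes. Among these were the fibrinogen chains, with log2 fold changes of -0.43 (*Fga*, unadjusted p = 0.00787), -0.45 (*Fgb*) and -0.44 (*Fgg*). *C8a* was at 489, 247 and 362 CPM in R&Zdel and at 471, 592 and 314 in R&Zflox (-0.31, SE 0.35, unadjusted p = 0.391). *C8b* (388, 278 and 307 against 503.1, 409.7 and 175 CPM), *F7* (170.2, 175 and 189 against 211, 131 and 261 CPM) and *F9* (75.8, 58.5 and 76.7 against 78.5, 84.4 and 139 CPM) overlapped as well.

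*C6* at PHx 7d was at 818, 888 and 566 CPM in R&Zdel and at 643, 572 and 55.7 in R&Zflox, the last of these in the library whose sex genes went against its label. The count of called genes remained 0 without that library, and 0 when it was entered as female, where *C8a* had a log2 fold change of -0.73 (unadjusted p = 0.0537). Compared with undamaged 1M livers of the same batch, 0 genes were called at PHx 7d in R&Zflox and 0 in R&Zdel (0.0235% and 0.0157% of all genes), and 0 by DESeq2, with 4 and 5 genes at an unadjusted p under 0.05 (5.79% and 4.99% of all genes).

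At 21 days, 2 of the 42 genes were lower in R&Zdel and 0 higher, against 3.52% of all genes called lower, a share of these genes near that of all genes. *C8a* was at 139, 122 and 94.3 CPM in R&Zdel and at 419, 526 and 451 in R&Zflox (119 ± 22.8 against 466 ± 55.0, n = 3 each). The groups did not overlap, and their difference on the log2 scale was -1.43 (SE 0.38, unadjusted p = 0.00123, adjusted p = 0.187). *Cpb2* was at 112, 149 and 187 CPM in R&Zdel and at 269.7, 296 and 341 in R&Zflox (149 ± 37.0 against 302 ± 36.2), again without overlap (-1.04, SE 0.25, unadjusted p = 0.000447, adjusted p = 0.102). Neither passed the adjusted threshold, where 0 of 42 (and 0.329% of all genes in either direction) were called. At an unadjusted p under 0.05 and any fold change, edgeR gave 17 of the 42 genes, 16 lower and 1 higher. The share of all genes at that threshold is not given here for 21 days.

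*C8b* at PHx 21d was at 267, 238 and 78.2 CPM in R&Zdel and at 495, 487 and 456 in R&Zflox (-0.95, unadjusted p = 0.00301). *F7* (unadjusted p = 0.554) and *F9* (unadjusted p = 0.786) overlapped between the genotypes. *Serpinc1*, the main inhibitor of thrombin, alone passed the adjusted threshold at any fold change, at 1728, 1717 and 2181 against 2476, 2819.8 and 2529 CPM (-0.57, adjusted p = 0.0819). In 17 of the 42 genes all R&Zdel values lay below all R&Zflox values, against 5.43% of all genes. The third R&Zdel mouse was female, and without it, in males alone, *C8a* (-1.84), *Cpb2*, *C9*, *F11* and *F13b* were called, 5 in all, with 7.55% of all genes called in either direction. The fit of males went by listed sex, so it still held R&Zflox PHx 7d replicate 3. Hepatocyte markers summed to between 68425 and 111560 CPM in R&Zdel and between 124700 and 149270 in R&Zflox at 21 days, and their part was not tested.

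Set side by side, the 8 genotype comparisons gave a negative log2 fold change in every one of them for 13 of the 41 genes tested throughout, and a positive one in every comparison for 0. The compared groups share no libraries, but comparisons fitted in the same model share its dispersion and its terms. The 13 were *C8a*, *C8b*, *C9*, *C1s1*, *Cfi*, the 3 fibrinogen chains, *Kng1*, *Proz*, *Serpinc1*, *Serpind1* and *Cpb2*. For *C8a* the values ran from -1.60 to -0.31, for *C9* from -1.71 to -0.33 and for *Fgg* from -2.27 to -0.40. In contrast, *C6* was at 1.02, 1.48 and 0.68 in undamaged livers at 1M, 3M and 7M (adjusted p = 0.348, 0.373 and 0.551) and at -1.16 at CD 4d. Most of these values did not pass their tests, and the number of genes with 1 sign is a description of these libraries. The share of all genes with 1 sign throughout was not computed.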

How the data were processed

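The authors prepared Smart-Seq2 libraries from liver RNA and sequenced single reads. The paper names Sickle and the submitters' processing notes Trim Galore for trimming, and both name STAR 2.5.0a, mm10 and featureCounts (1.5.0-p1 and 1.5.0-p3 in the notes). The deposited files hold raw counts of reads per gene, neither normalized nor filtered by the authors. Overlapping genes, since Smart-Seq2 does not keep strand, and copies of *C2*, *C4b*, *Cfb*, *Masp2* and *C4bp* on alternate contigs of the first batch's annotation, can shift reads between genes, so the levels of these 5 are uncertain.

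From these counts, models were fitted to all genes in R 4.3.3 with edgeR 4.0.16 (quasi-likelihood test, TMM), and DESeq2 1.42.0 was an alternative. The filter on low counts asked for a CPM over 1 in 3 or more libraries, in CD for a CPM of 1 in a share of 0.5 of the libraries, and left 12848 (undamaged), 11358 (CD), 12773 (PHx with 1M) and 12608 (first batch). Terms were genotype by time, sex and, for undamaged livers, batch. Depth limits low genes, of which *Serpina5* was never tested and *C5ar1* not in CD. The highest correlation between libraries was 0.9949 and 0 pairs were identical. Same-numbered replicates were not treated as pairs. The correlations of their deviations ran from -0.494 to 0.419, which cannot exclude a shared litter or day. In CD, with 2 libraries per group, both replicates necessarily have the same value.

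The genes and lists were chosen with earlier results of these data known. Full values are given for up to 6 changed genes per comparison and direction with the largest fold change and a mean of at least 5 CPM in a group, and for *C8a*, *C8b*, *F7* and *F9* in CD and PHx. Others named were chosen after their values were seen. Where labels and the study's sample list conflicted (R&Zdel 3M replicate 4, R&Zflox 7M replicate 5, R&Zdel 7M replicate 6, and both R&Zflox CD 170d libraries, which that list also puts at 50d), the labels were followed. Another 4 libraries had no group in the labels, among them a library that the study's list puts in R&Zdel 3M, and 2 labelled R&Zdel 3M samples were not analysed here. Models were tested on simulated counts.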

Additional observations from a re-analysis of the deposited data

Results flagged for a closer look

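The change from undamaged to CD 4d livers differed between the genotypes for 7 of the genes given in full, by the interaction in edgeR's model of the first batch. The R&Zdel change minus the R&Zflox change, on the log2 scale, was -2.526 for *C6*, -1.811 for *F12*, -1.784 for *Fga*, -1.663 for *Fgg*, -1.412 for *Fgb* and -1.386 for *F7*. It was 2.525 for *C5ar1*, which was below 5 CPM in these libraries and whose call was lost in 9 of the 11 fits that left out 1 library. Each of the other 6 kept its call in all 11. The value of *C6* rests on the term for sex. The levels of the named genes were examined for a single distant library in the R&Zdel and R&Zflox 1M groups, which alone held 4 or more libraries of 1 batch. Of these 36 sets of values 0 had one, where chance gives about 1 in 20. Both 1M groups held females and males, so for genes that differ by sex the rule could hardly flag a single library. Smaller groups, among them R&Zflox PHx 7d and the second-batch R&Zdel livers at 7M, were not examined.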

How the results depend on the processing

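Counts of called genes stayed within 1.5 times the reported count in 179 of 221 recomputed counts and moved further in 42. Of the recomputed fold changes of single genes, 640 kept their call and direction, 57 lost the call, 11 gained one and 5 changed sign. These 5 were of genes not called, where leaving out 1 library gave *C8b* at PHx 7d from -0.47 to 0.181, *F7* from -0.396 to 0.082 at PHx 7d and from -0.296 to 0.025 at 21d, and *F9* from -0.347 to 0.487 at 21d. Without a filter on low counts, 1 gene was called at 3M, 5 at CD 170d and 1 at PHx 7d. DESeq2's Wald test gave 1 at 3M and 5 at CD 170d, and the likelihood ratio test 5 at CD 170d. DESeq2's size factors gave 3 at CD 50d and 1 over recovery in R&Zflox. At any fold change the counts were 26 at CD 4d (27.6% of all genes), 1 at PHx 21d and 25 over recovery in R&Zdel. For CD 4d against undamaged they were 5 in R&Zflox and 32 in R&Zdel. With the fold threshold, 9.95% of all genes were lower and 21.4% higher in that R&Zdel comparison. The shares of all genes under most of these settings are not given here, so the counts describe the listed genes only. The compared groups alone gave 3 at CD 50d, 0 at CD 170d and 5 at PHx 21d. With both libraries that the study also lists at 50d counted there, 12 were called at CD 50d. Males alone gave 5 at PHx 21d and 0 for CD 4d against undamaged in R&Zflox, as did the 3M livers alone for the latter (0). Without the 2 CD 170d libraries high in *Krt19* and *Ctrb1*, chosen after seeing the data, 0 were called at CD 170d and 1 over recovery in R&Zflox. The causes were not tested.

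Leaving out each library in turn gave 0 to 1 at 3M, 0 to 5 at 7M, 9 to 19 at CD 4d, 0 to 2 at CD 50d, 0 to 4 at CD 170d, 0 to 1 at PHx 7d and 1 to 5 at PHx 21d. It gave 0 to 1 and 13 to 24 for CD 4d against undamaged in R&Zflox and R&Zdel, 11 to 18 for their difference, 0 to 3 and 10 to 15 over recovery in R&Zflox and R&Zdel, and 3 to 4 for sex. With the replicate number as a block, 18 were called at CD 4d, 2 at CD 50d, 1 at CD 170d, 0 at PHx 7d, 2 at PHx 21d and 0 without damage. The shares of all genes in most of these fits are not given here either. Differences under the fold threshold of genes with a few counts were not detectable at this depth, and 2 libraries per group limit every CD value.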

Other observations

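Livers of 4 mice to which the labels give no group entered no main comparison. Their *C6* levels were 9.37, 38.0, 28.2 and 29.02 CPM and their *C8a* levels 198, 91.7, 103 and 95.2 CPM. *C9* was at 108, 129, 73.3 and 189 CPM in the same libraries, and *Fga* at 7852, 6474, 4217 and 6385 CPM. The liver with *C6* at 28.2 CPM came from a mouse listed as female, which the study's list puts in R&Zdel 3M. That library entered an alternative fit of the 3M comparison. The R&Zdel 7M library without a listed sex had *C6* at 25.1 CPM, *C8a* at 56.1 CPM and *Fga* at 4155 CPM. Its Xist was at 47.0 CPM and its Ddx3y at 0.0749, with Xist above Ddx3y as in every library listed as female. It entered an alternative fit of the 7M comparison that had no term for sex.

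Among the pathway genes outside the list, the 3 chains of C1q, which macrophages make, were higher at CD 4d than without damage in both genotypes. *C1qa* had log2 fold changes of 1.49 in R&Zflox and 2.28 in R&Zdel, *C1qb* 1.26 and 1.94, and *C1qc* 1.36 and 2.17, all called, where 3.39% and 21.4% of all genes were higher. Of 8 macrophage markers, 6 were higher in R&Zflox (median 1.52) and 7 in R&Zdel (1.66), and their part was not tested. Factor D (*Cfd*), known from fat tissue, was lower at CD 170d in R&Zdel than in R&Zflox (-3.27, adjusted p = 0.0995) and was the only one of the 31 pathway genes tested outside the list to be called at that time.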
